A study of Rattus norvegicus with 8 samples.

Results

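A set of 10 genes of tubular calcium and magnesium handling, mostly in the distal nephron, was followed in whole kidneys of the HSRA rat. These genes were Trpv5, Trpv6, Calb1, Pvalb, Slc8a1, Atp2b1, Atp2b4, Trpm6, Cnnm2 and the receptor gene Casr. They were chosen by name, with earlier results of these data known. A probe set counted as a member when the platform annotation gave it exactly 1 of these symbols. This found 10 probe sets, 1 for each of the 10 genes, among 29214 probe sets and 17245 named genes on the array. Of the 10 genes, 9 passed a filter that left out the dimmest 20% of genes, and Pvalb did not.

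The study compared kidneys of HSRA-S rats, born with a congenital solitary kidney, with those of HSRA-C rats, which have 2 kidneys and served as the control. Both groups belong to HSRA, a rat line bred from a heterogeneous stock as a model of unilateral renal agenesis, both were 4 weeks old, and the labels name no treatment, surgery or transgene for either. Each group held 4 independent animals, and RNA of each whole kidney was hybridised to its own Affymetrix Rat Gene 1.1 ST array. No label used here gives the sex of the animals or which of the paired kidneys was taken. The comparison asks what sets kidneys that grew without a partner apart from paired kidneys of their line.

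In the distal convoluted and connecting tubules calcium is reabsorbed through the cell rather than between cells. It enters from the urine through the channels TRPV5 and TRPV6, is bound and ferried by calbindin-D28k, the product of Calb1, and leaves towards the blood through the sodium-calcium exchanger NCX1 (Slc8a1) and plasma membrane calcium pumps (Atp2b1, Atp2b4). Magnesium enters the same segment through the channel TRPM6, and CNNM2 is needed on the blood side for its handling. The calcium-sensing receptor, encoded by Casr, sits mainly in the thick ascending limb, upstream of these segments, and restrains calcium reabsorption when blood calcium is high.

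All values are log2 of the deposited RMA intensity, differences are HSRA-S minus HSRA-C on that scale, and SE is the standard error from limma fitted over all genes. Brightness differs between probe sets for reasons other than RNA amount, so levels of different genes are not ranked against each other. Array medians lay between 30.8 and 32.3 on the linear scale, and correlations between arrays ran from 0.987 to 0.995. HSRA-C replicates 3 and 4 stood apart, with 16.7 and 19.5 on the first principal component against -12.8 to -1.20 in the other samples. The mean of 3 inner medulla markers (Slc14a2, Aqp4 and Akr1b1) was 9.07 and 9.29 in these 2 samples, 5.88 in HSRA-S replicate 4 and 6.55 to 7.88 in the remaining 5. The difference of each member is therefore also given without HSRA-C replicates 3 and 4. Kidney markers were bright, with Umod of the thick ascending limb at 11.6 and Slc34a1 of the proximal tubule at 11.9 in HSRA-S. In whole-organ RNA, fewer cells of a type and less RNA per cell cannot be told apart.

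Promoter sequence is shown for 3 members: Trpv5, which had the widest difference between groups, Trpv6, its close relative and neighbour, and Casr, the only one of the 9 tested members whose mean was lower in HSRA-S. Trpv5 and Trpv6 lie on the same strand with 39715 bases between their starts. The windows are the 250 bases before the annotated start, from RefSeq on build GRCr8, at chr4:71529383-71529632 (minus strand) for Trpv5, chr4:71489668-71489917 (minus strand) for Trpv6 and chr11:77740364-77740613 (plus strand) for Casr. They are written 5′ to 3′, and capitals mark a match to 1 of 3 hexamers of the kind bound by the vitamin D receptor.
Trpv5: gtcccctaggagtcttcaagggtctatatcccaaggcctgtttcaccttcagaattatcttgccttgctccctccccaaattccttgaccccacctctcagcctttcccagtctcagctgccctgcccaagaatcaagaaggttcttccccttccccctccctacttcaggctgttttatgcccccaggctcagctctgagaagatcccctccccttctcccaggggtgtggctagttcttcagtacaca
Trpv6: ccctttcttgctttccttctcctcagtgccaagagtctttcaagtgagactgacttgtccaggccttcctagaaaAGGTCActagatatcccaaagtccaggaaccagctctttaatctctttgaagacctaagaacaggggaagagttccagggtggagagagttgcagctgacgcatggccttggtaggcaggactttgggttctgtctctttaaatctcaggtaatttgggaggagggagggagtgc
Casr: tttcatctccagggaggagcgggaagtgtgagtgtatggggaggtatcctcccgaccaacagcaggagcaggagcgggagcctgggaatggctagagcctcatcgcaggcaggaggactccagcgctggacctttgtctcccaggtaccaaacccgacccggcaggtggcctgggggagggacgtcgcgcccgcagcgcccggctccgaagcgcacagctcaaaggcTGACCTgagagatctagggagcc

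Motifs were searched on both strands of these windows, and 9 of the 10 members had a window in the table, Calb1 not being among them. The first hexamer, AGGTCA, occurred once in Trpv6, starting 175 bases before the gene's start, and once in Casr on the opposite strand, in a match reaching from 23 bases before the start; it was present in 14.1% of all 33469 windows in the table. The second hexamer, GGTTCA, was found in no member and in 9.77% of all windows in the table. The third hexamer, AGTTCA, was likewise in no member window, against 12.2% of all windows in the table. The TATA box letters TATAAA were in none of the member windows and in 12.9% of all of them. Any of the 3 hexamers was present in 31.3% of all windows, against 2 of the 9 members. Such short letters are common, and a match describes the window only.

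The entry channel and the binding protein of the calcium pathway had higher means in the solitary kidneys, as did the magnesium channel, but no member passed the test. Of the 9 members tested, 8 had a higher mean in HSRA-S and 1 a lower mean. Among all genes tested 7651 had a higher and 6145 a lower mean. The members share the same 8 animals, so their directions are not independent. With limma and Benjamini-Hochberg adjustment over 13796 genes, 0 of the 9 passed at an adjusted p under 0.05, as did 0% of all genes tested. At an unadjusted p under 0.05 there were 4 members, Calb1, Trpv5, Trpm6 and Slc8a1, all higher, where 7.36% of all genes tested were higher and 4.69% lower at that level. That is 1663 genes or 12.1% in either direction. The members were chosen with earlier results of these data known, so a count above these shares is no test of the set. The median difference was 0.19 over the 9 members and 0.015 over all genes tested. Without HSRA-C replicates 3 and 4, 8 members still had a higher mean, and the median difference of the 9 was 0.17. In that setting 1 member, Trpv5, remained at an unadjusted p under 0.05, as did 4.85% of all genes tested. Only HSRA-C replicates 1 and 2 then served as controls. The SE rose to 0.16 for Calb1, 0.23 for Trpv5 and 0.15 for Slc8a1, and fell to 0.098 for Trpm6. The part of the smaller control group in the lower count was not tested. The groups overlapped in each of the 9 tested members, so 0 of 9 were separated, where 6.29% of all genes tested were separated (4.12% with HSRA-S higher and 2.17% with HSRA-S lower).

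**Figure D1:**
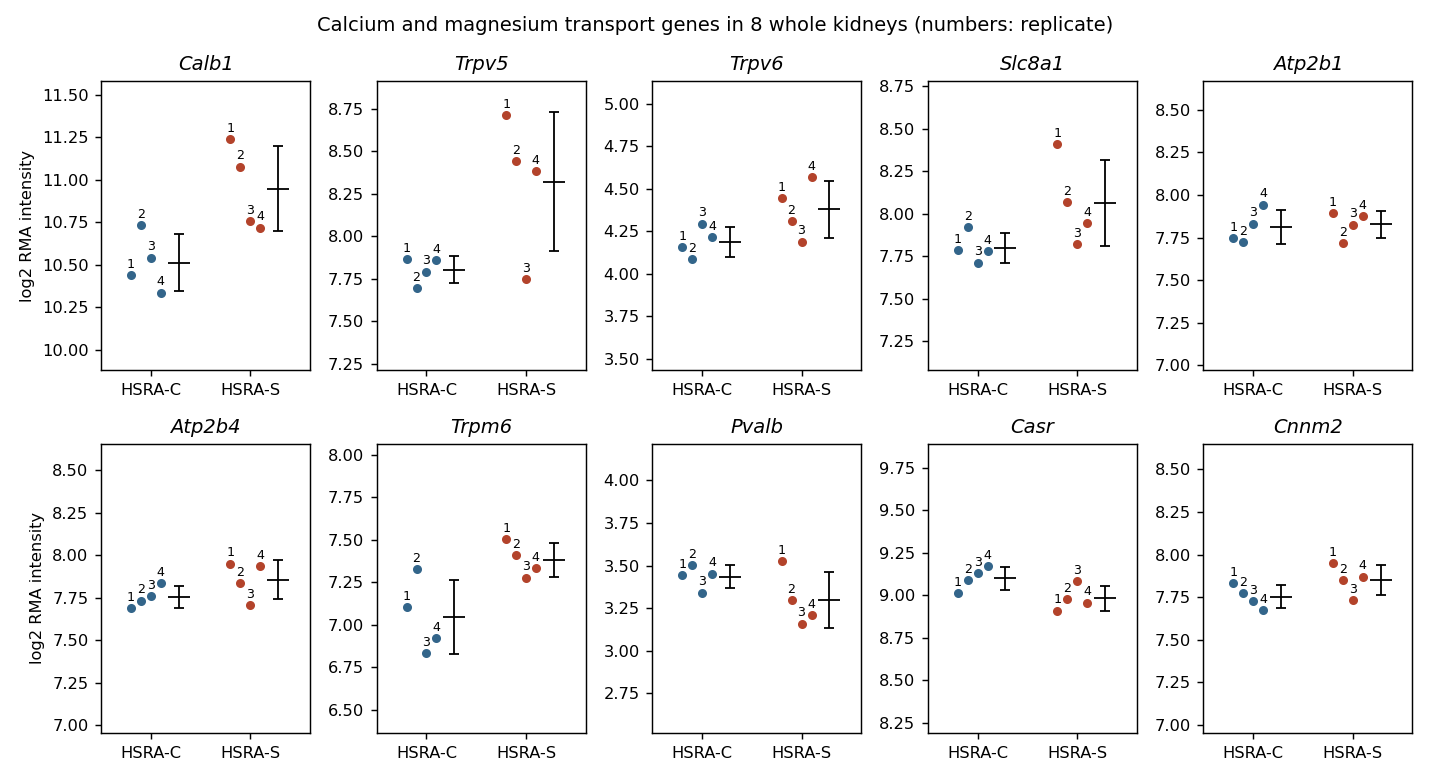
Log2 RMA intensity of the 10 genes in 4 HSRA-C (blue) and 4 HSRA-S (red) kidneys, 1 point per animal numbered by replicate, with the group mean and SD in black beside the points. All panels span the same log2 range around their own mean, so distances, but not heights, compare between genes: 3 HSRA-S points of Trpv5 lie above all controls and replicate 3 lies among them.

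Trpv5, the main apical calcium channel of these segments, was at 8.71, 8.44, 7.75 and 8.38 in HSRA-S replicates 1 to 4. In HSRA-C it was at 7.87, 7.70, 7.79 and 7.86. The controls were tight, while 3 solitary kidneys lay above all of them and HSRA-S replicate 3 lay within their range. The means of 8.32 ± 0.41 and 7.80 ± 0.078 (SD, n = 4 each) gave a 1.43-fold higher mean in HSRA-S, with a log2 difference of 0.52 (SE 0.17, 95% interval 0.14 to 0.90) and a limma adjusted p of 0.338. The difference was 0.54 without HSRA-C replicates 3 and 4. Leaving out single samples moved it between 0.39, without HSRA-S replicate 1, and 0.71, without HSRA-S replicate 3.

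Trpv6, the related channel best known from the intestine, was dim on this array. Its values were 4.45, 4.31, 4.19 and 4.57 in HSRA-S and 4.16, 4.09, 4.30 and 4.21 in HSRA-C. As for Trpv5, 3 of the 4 solitary kidneys lay above all controls and replicate 3 did not. The log2 difference was 0.19 (SE 0.088, 95% interval -0.0070 to 0.39), a 1.14-fold higher mean, with a limma adjusted p of 0.424. Without HSRA-C replicates 3 and 4 it was 0.26, and the groups then did not overlap, which held for 13.9% of all genes tested. RMA compresses low intensities, so the size of a difference this dim is uncertain.

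Calb1, the cytosolic calcium buffer and shuttle, was bright in every kidney. It was at 11.24, 11.08, 10.76 and 10.72 in HSRA-S and at 10.44, 10.73, 10.54 and 10.34 in HSRA-C. Here HSRA-S replicates 1 to 3 lay above all controls, and replicate 4 fell just under the highest control, HSRA-C replicate 2. The means were 10.95 ± 0.25 and 10.51 ± 0.17 (SD, n = 4 each), a 1.35-fold higher mean in HSRA-S with a difference of 0.44 (SE 0.13, 95% interval 0.15 to 0.72) and a limma adjusted p of 0.331. Without HSRA-C replicates 3 and 4 the difference was 0.36, with a 95% interval from -0.015 to 0.74.

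Pvalb encodes parvalbumin, a calcium-binding protein that in rodents marks the early distal convoluted tubule and is abundant in fast skeletal muscle. Its probe set lay between 3.16 and 3.52 in all 8 kidneys, below the filter at a mean of 3.63, and it was therefore not tested with the others. The values were 3.52, 3.30, 3.16 and 3.21 in HSRA-S and 3.44, 3.50, 3.34 and 3.45 in HSRA-C. Fitted without the filter, the difference was -0.14 (SE 0.086, limma adjusted p = 0.586). It was -0.18 without HSRA-C replicates 3 and 4, an alternative chosen after seeing the data. A value this dim gives no direction for the gene.

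On the exit side, Slc8a1, the exchanger that moves most calcium out of these cells in return for sodium, was at 8.41, 8.07, 7.82 and 7.94 in HSRA-S. In HSRA-C it was at 7.78, 7.92, 7.71 and 7.78. HSRA-S replicate 1 stood highest, replicates 2 and 4 also lay above all controls, and replicate 3 lay below HSRA-C replicate 2. The log2 difference was 0.26 (SE 0.12, 95% interval 0.0036 to 0.52), a 1.20-fold higher mean, with a limma adjusted p of 0.413. It was 0.14 without HSRA-S replicate 1, 0.34 without HSRA-S replicate 3 and 0.21 without HSRA-C replicates 3 and 4. Slc8a1 is also expressed in smooth muscle, whose marker list (3 of 4 genes tested) had means of 6.11 to 6.39 in HSRA-S and 6.11 to 6.27 in HSRA-C, and its part in the value was not tested.

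The calcium pumps PMCA1 (Atp2b1), present in most cells, and PMCA4 (Atp2b4) showed little. Atp2b1 was at 7.89, 7.72, 7.83 and 7.88 in HSRA-S and at 7.75, 7.72, 7.83 and 7.94 in HSRA-C. The groups covered nearly the same range, and the difference was 0.018 (SE 0.071, 95% interval -0.14 to 0.17, limma adjusted p = 0.945), whose sign turned to -0.0070 when the arrays were quantile normalised again. It was 0.094 without HSRA-C replicates 3 and 4. Atp2b4 was at 7.95, 7.83, 7.70 and 7.94 in HSRA-S and at 7.69, 7.73, 7.76 and 7.84 in HSRA-C. Only HSRA-S replicates 1 and 4 exceeded all controls, and the difference was 0.10 (SE 0.071, 95% interval -0.055 to 0.26, limma adjusted p = 0.580). It was 0.15 without HSRA-C replicates 3 and 4.

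Trpm6, the magnesium channel of the distal convoluted tubule, was at 7.51, 7.41, 7.28 and 7.34 in HSRA-S and at 7.11, 7.33, 6.83 and 6.92 in HSRA-C. The solitary kidneys were close together, the controls were spread, and HSRA-C replicate 2 lay among the solitary kidneys. The difference was 0.34 (SE 0.11, 95% interval 0.099 to 0.57), a 1.26-fold higher mean, with a limma adjusted p of 0.338. The lowest values belonged to HSRA-C replicates 3 and 4, the samples with the highest inner medulla markers. Without them the difference was 0.17 (95% interval -0.061 to 0.39), and the part of the medullary markers in it was not tested further.

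Cnnm2, whose loss causes renal magnesium wasting, was at 7.95, 7.85, 7.73 and 7.87 in HSRA-S and at 7.83, 7.77, 7.73 and 7.67 in HSRA-C. Again HSRA-S replicate 3 alone of its group fell within the controls. The difference was 0.099 (SE 0.067, 95% interval -0.050 to 0.25, limma adjusted p = 0.576), and 0.048 without HSRA-C replicates 3 and 4.

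Casr lay on the other side of zero. It was at 8.91, 8.98, 9.08 and 8.96 in HSRA-S and at 9.01, 9.09, 9.13 and 9.17 in HSRA-C. Here 3 solitary kidneys lay below all controls, and the exception was again HSRA-S replicate 3. The difference was -0.12 (SE 0.063, 95% interval -0.26 to 0.025, limma adjusted p = 0.485), and -0.066 without HSRA-C replicates 3 and 4.

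**Figure D2:**
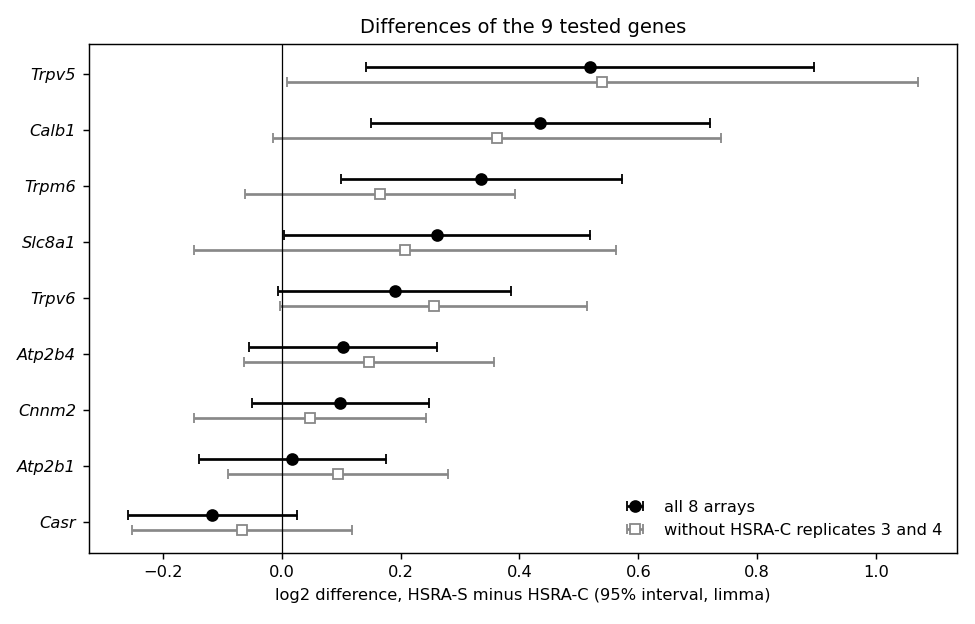
Log2 difference, HSRA-S minus HSRA-C, of the 9 tested genes with 95% intervals from limma, for all 8 arrays (filled circles) and without HSRA-C replicates 3 and 4 (open squares). The intervals of Trpv5, Calb1, Trpm6 and Slc8a1 lie above 0 with all arrays, and of these only that of Trpv5 does so without the 2 control samples, while Trpm6 moves from 0.34 to 0.17.

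Some animals ranked alike in most members. HSRA-S replicate 1 was the highest of all 8 arrays in 7 of the 10 members: Calb1, Trpv5, Slc8a1, Atp2b4, Trpm6, Cnnm2 and the dim Pvalb. HSRA-S replicate 3 was the lowest of its group in 7 members: Trpv5, Trpv6, Slc8a1, Atp2b4, Trpm6, Cnnm2 and Pvalb. The share of all genes with these ranks was not counted, so the ranks are not shown to be particular to the members. HSRA-S replicate 1 also had the highest array median, 32.3 on the linear scale. Leaving out HSRA-S replicate 3 separated the groups in 6 of the 9 tested members, where 11.3% of all genes tested were then separated. These were Trpv5, Trpv6, Slc8a1, Trpm6, Casr and Cnnm2. In each of them replicate 3 was the only solitary kidney not beyond all controls, so its removal separated them by construction. The share of all genes therefore does not make this count an excess. Without HSRA-S replicate 3 the number of members at an unadjusted p under 0.05 was 6 rather than 4. The share of all genes at that level was 12.3% rather than 12.1%. Leaving out HSRA-C replicate 2 separated 3 members and 12.6% of all genes tested. Leaving out any other single sample separated 0 or 1 members, with 7.95% to 12.5% of all genes. With all 8 samples the share of all genes was 6.29%. The distal convoluted tubule list mean was 9.10 in HSRA-S replicate 1, 8.89 to 8.92 in the other 3 solitary kidneys and 8.74 to 8.92 in the controls. On that list replicate 1 stood apart and replicate 3 did not.

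**Figure D3:**
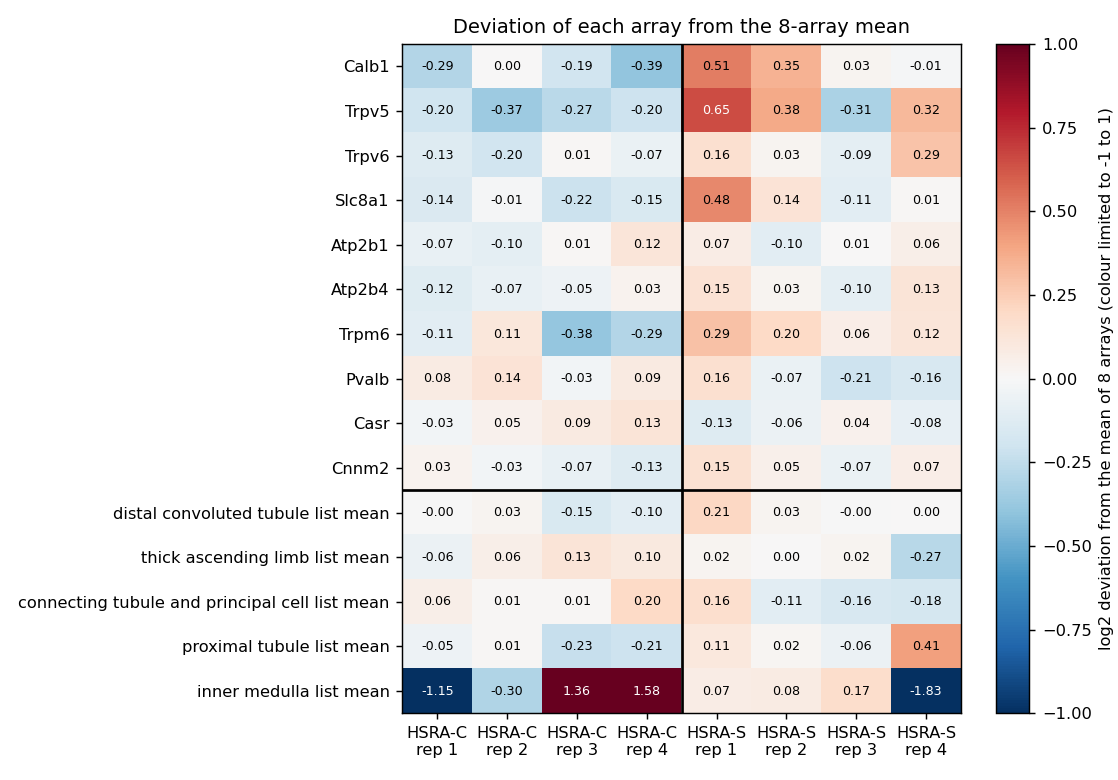
Log2 deviation of each array from the mean of all 8, for the 10 genes and, below the line, for the means of 5 marker lists; red is above and blue below the mean. HSRA-S replicate 1 is the reddest column among the genes. The inner medulla row is highest in HSRA-C replicates 3 and 4 and lowest in HSRA-S replicate 4, followed by HSRA-C replicate 1.

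Slc12a3, the thiazide-sensitive sodium chloride cotransporter that defines the distal convoluted tubule, served as a reference transcript of that segment. It was at 10.47, 10.28, 10.09 and 10.39 in HSRA-S and at 10.26, 10.26, 10.20 and 10.18 in HSRA-C, a difference of 0.082 (SE 0.083, limma adjusted p = 0.722), or 0.045 without HSRA-C replicates 3 and 4. HSRA-S replicate 3 was the lowest of all 8 arrays here. When Slc12a3 was subtracted within each array, the group difference was 0.44 for Trpv5, 0.35 for Calb1, 0.25 for Trpm6 and 0.18 for Slc8a1, with overlapping groups in each. Subtracting the mean of the 6 tested genes of the distal convoluted tubule list gave 0.40, 0.32, 0.22 and 0.14. These values are descriptions without a test. The level of a marker joins cell number and RNA per cell, so subtracting it does not correct for the amount of the segment. Without HSRA-C replicates 3 and 4 the value relative to Slc12a3 was 0.49 for Trpv5, 0.32 for Calb1, 0.12 for Trpm6 and 0.16 for Slc8a1. Pvalb relative to Slc12a3 was at -0.22 and rests on values below the filter.

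The tubule segments around the members differed in direction. All 6 tested genes of the distal convoluted tubule list had a higher mean in HSRA-S, with a median difference of 0.11. The kinase Wnk1 (0.15, SE 0.062) and Klhl3, the adaptor that targets WNK kinases for degradation (0.20, SE 0.090), were at an unadjusted p under 0.05. At that level were 12.1% of all genes tested. Of 8 tested thick ascending limb genes 7 had a lower mean, with a median of -0.10. Cldn19, a claudin needed for paracellular calcium and magnesium reabsorption there, was at -0.27 (SE 0.12) and its partner Cldn16 at -0.055 (SE 0.085). All 5 tested connecting tubule and principal cell genes were lower on average, with a median of -0.11, and Aqp2, the vasopressin-regulated water channel, was at -0.38 (SE 0.15). Intercalated cell genes were lower in 4 of 5, among them Foxi1 (-0.28, SE 0.082) and Slc4a1 (-0.29, SE 0.12). Proximal tubule genes were higher in 5 of 6, led without overlap by the glucose transporter Slc2a2 (0.75, SE 0.19) and the amino acid transporter Slc6a19 (0.48, SE 0.13). Cldn19, Aqp2, Foxi1, Slc4a1, Slc2a2 and Slc6a19 were also at an unadjusted p under 0.05. Separated groups were seen in 6.29% of all genes tested. No gene of these lists passed the adjusted threshold. Without HSRA-C replicates 3 and 4 the medians were 0.060 for the distal convoluted tubule, with 5 of 6 genes higher, -0.076 for the thick ascending limb and -0.12 for the principal cell list, and these 3 lists had 0 genes at an unadjusted p under 0.05. In that setting Aqp2 was at -0.12, Klhl3 at 0.095, Cldn19 at -0.19 and Cldn16 at 0.020, on the other side of zero. Foxi1 was then at -0.22 and Slc4a1 at -0.29. Proximal tubule genes were then higher in 3 and lower in 3, with a median of 0.015, Slc2a2 at 0.56 and Slc6a19 at 0.33.

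Markers of other tissues gave the following. Of 3 inner medulla genes all 3 had a lower mean in HSRA-S, and all 3 a higher one without HSRA-C replicates 3 and 4. Of 3 tested podocyte genes 3 were lower on average. Skeletal muscle genes, which bear on Pvalb, had 3 tested members with list means of 4.54 to 4.61 in HSRA-S and 4.40 to 4.62 in HSRA-C. Adrenal genes had 2 tested members of 5, and Cyp11b1, a steroid hydroxylase, was at -0.26 (SE 0.079). Its list mean was 4.77 to 4.95 in HSRA-S and 4.93 to 5.14 in HSRA-C. The 4 adipocyte genes lay at 4.74 to 4.88 and 4.76 to 4.96, and the 2 tested erythroid genes at 5.64 to 6.22 and 4.95 to 6.36. The part of these cell types in the members' values was not tested.

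Hormones set the rate of distal calcium transport, and the genes of that control went both ways. Of 11 tested, 6 had a higher and 5 a lower mean in HSRA-S, with 0 past the adjusted threshold. At an unadjusted p under 0.05 there were 2 in each direction, where 7.36% of all genes tested were higher and 4.69% lower. Groups did not overlap in 2 of the 11, Stc1 and Kl, and in 6.29% of all genes tested. Cyp24a1, the enzyme that degrades active vitamin D and is induced by it, was at 5.59, 6.39, 6.29 and 6.44 in HSRA-S and at 5.28, 5.66, 5.90 and 4.66 in HSRA-C. Apart from HSRA-S replicate 1 the solitary kidneys lay above all controls, and the 1.74-fold higher mean (log2 difference 0.80, SE 0.26) had a limma adjusted p of 0.342. The replicate highest in Trpv5 and Calb1 was thus the lowest of its group in Cyp24a1. Stc1, encoding stanniocalcin 1, a secreted regulator of calcium and phosphate, was at 7.99, 7.87, 7.39 and 7.93 in HSRA-S and at 8.53, 8.11, 8.38 and 8.47 in HSRA-C. Its groups did not overlap, and its mean was 1.49-fold lower (difference -0.58, SE 0.14, limma adjusted p = 0.331).

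Kl encodes Klotho, the coreceptor for the phosphate hormone FGF23, which is also reported to keep TRPV5 at the cell surface. It was at 10.13, 10.09, 9.98 and 10.07 in HSRA-S and at 9.95, 9.97, 9.64 and 9.81 in HSRA-C, without overlap. The difference was 0.23 (SE 0.081, limma adjusted p = 0.358) and 0.11 without HSRA-C replicates 3 and 4, against 0.70 for Cyp24a1 and -0.53 for Stc1 there. The probe set annotated to Gnas was at -0.41 (SE 0.14), with dim means of 4.37 and 4.79. The Gnas locus gives several transcripts, among them that of the stimulatory G protein subunit through which parathyroid hormone acts, and which of them this probe set reads is not known here. The receptors for these hormones were closer to zero, with the parathyroid hormone receptor Pth1r at 0.17 (SE 0.088) and the vitamin D receptor Vdr at 0.091 (SE 0.11). They were at 0.046 and -0.11 without HSRA-C replicates 3 and 4, so the sign of Vdr turned.

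The other carriers and buffers of calcium showed no gene at an unadjusted p under 0.05, a level reached by 12.1% of all genes tested. Of 11 tested, 5 had a higher and 6 a lower mean, with a median of -0.12. S100g, calbindin-D9k, the small vitamin D dependent calcium buffer, varied most within groups. It was at 6.50, 6.37, 6.02 and 7.48 in HSRA-S and at 7.31, 6.02, 7.17 and 7.20 in HSRA-C. Both groups spanned more than a doubling, and the difference of -0.33 had an SE of 0.34 (limma adjusted p = 0.728). The 4 genes of smallest p were S100a10 (-0.20, SE 0.091) and Anxa2 (-0.23, SE 0.14), which bind each other and are reported to carry TRPV5 and TRPV6 to the membrane, and the exchangers Slc8a2 (0.17, SE 0.092) and Slc8b1 (-0.16, SE 0.092). These 4 were at -0.12, -0.045, 0.26 and -0.074, and S100g at -0.072, without HSRA-C replicates 3 and 4.

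Among 16 other magnesium genes tested, 8 had a higher and 8 a lower mean, and the median was -0.00030. Rragd was at 8.58, 8.48, 8.41 and 8.46 in HSRA-S and at 8.08, 8.33, 8.13 and 8.16 in HSRA-C. It encodes RagD, a GTPase of nutrient sensing by mTORC1 whose mutation causes renal magnesium loss. The groups did not overlap, which held for 6.29% of all genes tested. The 1.24-fold higher mean had a log2 difference of 0.31 (SE 0.071, limma adjusted p = 0.331), or 0.28 without HSRA-C replicates 3 and 4. Egfr, the receptor through which EGF stimulates TRPM6, was at -0.21 (SE 0.11), Tusc3 at -0.084 (SE 0.053) and the TRPM6 homologue Trpm7 at 0.092 (SE 0.057). Egfr was at -0.095 without HSRA-C replicates 3 and 4.

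**Figure D4:**
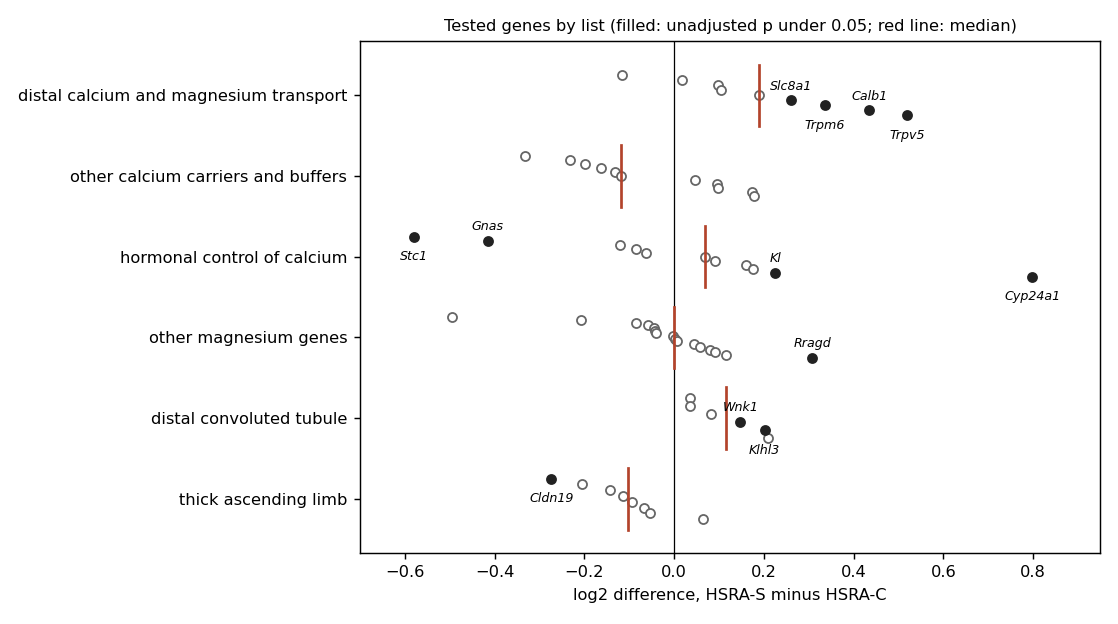
Log2 difference, HSRA-S minus HSRA-C, of each tested gene (1 circle per gene) in 6 lists, with a red line at each list's median; filled circles are at an unadjusted p under 0.05, and none passed after adjustment. The transport genes have a median of 0.19, and the filled circles farthest from 0 are Cyp24a1 at 0.80 and Stc1 at -0.58.

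Over the 8 arrays, the genes whose pattern lay closest to that of Calb1 were Or6n2, an olfactory receptor gene, Tnfaip8 and the mitotic kinesin Kif2c. Closeness was the root mean square difference after centring each gene on its own mean, which was 0.073, 0.075 and 0.083, against a median of 0.29 over all genes tested. For Trpv5 they were Adh1c, an alcohol dehydrogenase, Rcan1, an inhibitor of the calcium-activated phosphatase calcineurin, and Adtrp, at 0.10, 0.12 and 0.13 against a median of 0.37. The 8 values share the same arrays and their groups, and likeness is given as a description only.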

How the data were processed

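Per the submitters' processing notes the arrays were summarised by RMA, with its software and version not given in the sources used here. Intensities were deposited by the authors on a linear scale, running from 2.12 to 9259, so log2 was taken before any test. RMA equalises the arrays' distributions and compresses low intensities. All 8 columns were used. Of 29214 probe sets, 18644 had 1 gene symbol in the platform annotation, 962 several and 9608 none. Of the first, 18460 matched a RefSeq gene of GRCr8 by gene ID and 0 symbols changed. A gene was represented by its brightest probe set. The 20% of genes with the lowest 8-array means (3449 genes, up to 3.63) were not tested, and 13796 were.

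Groups were compared with limma 3.58.1 (R 4.3.3; lmFit, eBayes), group being the only term, with Benjamini-Hochberg adjustment at 0.05 and 95% intervals. The steps were tested on simulated data. The number of arrays limits the precision. The members, lists and the 2 samples left out were chosen with earlier results of these data known. Named are all members, up to 4 genes of smallest p per list, Slc12a3 and S100g, and the 3 genes closest to Calb1 and to Trpv5 in pattern. Slc34a1, Cldn16, Pth1r and Vdr are not named by this rule; they were chosen once their values had been seen. Lists covered other calcium carriers and buffers, hormonal control, other magnesium genes and markers of 12 cell types or tissues. Of 117 entries beside the members, those without a probe set of their own or below the filter were not tested. Alternatives were other filters, probe set rules, variance models and scalings, a replicate block, a tubule covariate and leaving out samples.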

Additional observations from a re-analysis of the deposited data

How the results depend on the processing

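With limma, members past the adjusted threshold stayed at 0 under every alternative run, and genes past it at 0 except for 1 gene with the dimmest 50% left out and 1 gene with an intensity trend. The 4 members at an unadjusted p under 0.05 (12.1% of all genes tested) became 1 without HSRA-C replicates 3 and 4 (4.85% of all genes) and 2 with the difference of proximal tubule and principal cell markers as a covariate (7.99%), and lay between 3 and 6 when single samples were left out (7.32% to 14.1%). The unmoderated test per gene gave 3 members and 1438 genes at that level. With the covariate the difference was larger for Calb1 (0.53, SE 0.18), Trpv5 (0.59, SE 0.24) and Slc8a1 (0.36, SE 0.16). It was smaller for Trpm6 (0.27, SE 0.15), and the SE was larger for each of these 4. The covariate itself ran from 1.39 to 2.04 in HSRA-S and from 1.04 to 1.45 in HSRA-C, so it is not independent of group. The number of separated members, 0 with all samples, was 1 without HSRA-C replicates 3 and 4 (Trpv6; 13.9% of all genes) and lay between 0 and 6 when single samples were left out (7.95% to 12.6% of all genes). Of 170 log2 differences of members under the alternatives, 166 kept their direction and side of the threshold. The other 4 were all of Atp2b1, at -0.0070 after repeated quantile normalisation and down to -0.011 (highest 0.062) when single samples were left out. Changes of filter, probe set rule or variance model and the replicate block left each difference unchanged by construction. Those settings could not turn a direction, so the count of 166 overstates stability. No member passed in any setting, so the side of the threshold adds little. Leaving out single samples moved the values relative to Slc12a3 between 0.36 and 0.55 for Trpv5, 0.30 and 0.46 for Calb1, 0.19 and 0.34 for Trpm6, and 0.12 and 0.25 for Slc8a1. The cause of these shifts was not tested. Deviations of samples with the same replicate number correlated at -0.068, 0.070, 0.13 and -0.11 over genes. The labels state no pairing, and such correlations cannot decide whether the numbers pair samples. With the replicate block, 0 members passed, 4 were at an unadjusted p under 0.05, and the adjusted p was 0.276 for Calb1 and 0.295 for Trpv5 by limma. Pvalb, below the filter, and Trpv6, dim, are limited by signal.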
